A study of Mus musculus with 3 samples.

Results

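The secreted and membrane-bound metalloproteinases of the matrix and their inhibitors were followed through palatal fusion: the genes whose symbol is Mmp or Timp followed by a digit, or begins with Adamts (Adamtsl included). Of 18193 genes with a probe set that names 1 gene, 42 met this rule, with 78 of 34945 such probe sets: 18 Mmp genes, 15 Adamts genes with a protease domain, 5 Adamtsl genes and 4 Timp genes. For each gene the brightest probe set was used, by its mean over the 3 arrays, and 27 of the 42 genes were above background before fusion, 31 during and 32 after it. The samples were pieces of palate from maxillae of ICR mouse fetuses, labelled female, that were taken at E14 and kept in suspension culture, with no mutation or test agent named. After 5 h in culture the palatal shelves had not met (before fusion), after 24 h a midline seam was present (during fusion) and after 60 h the seam had gone (after fusion). RNA of each stage was hybridized to 1 Mouse Genome 430 2.0 array. The methods describe several samples of each stage, with palates processed one by one and RNA taken from each, and do not say how these relate to the single array. The sources differ on the piece: the labels and one passage of the methods give the shelf edge at every stage, another passage gives the edge at 5 h and midline tissue at 24 h and 60 h. Stage, hours in culture and, if the second account holds, piece of tissue change together and cannot be told apart, and each piece held epithelium and mesenchyme.

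Matrix metalloproteinases (MMPs) are zinc endopeptidases that are made as inactive precursors and cut collagens, laminins, proteoglycans and precursors of growth factors; some are secreted and others, the membrane-type MMPs, stay on the cell surface. The ADAMTS enzymes are secreted zinc proteases with thrombospondin repeats that cleave large proteoglycans such as versican and aggrecan, trim procollagens or act on fibrillin microfibrils, and the ADAMTS-like proteins keep the repeats but lack the protease domain. Tissue inhibitors of metalloproteinases (TIMPs) bind the active enzymes, and TIMP3 also inhibits several ADAMTS enzymes. In the mouse palate, *Mmp13* and *Timp2* are known at the medial edge epithelium under the control of TGFβ3, combined loss of *Mmp14* and *Mmp16* leaves a cleft palate, and so does reduced cleavage of versican by ADAMTS9 and ADAMTS20.

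The signal is the MAS5 value of a probe set on a linear scale, after the arrays were brought to one trimmed mean. A background floor was read on each array from 81 probe sets of olfactory, vomeronasal and bitter taste receptors, as the 95th percentile of their scaled signals, and was 19.4 before, 13.3 during and 14.7 after fusion. A signal under the floor was raised to it, and the ratio is then a bound, given as at least so many fold. Since each stage has 1 array, differences between stages could not be tested and no p-value is given; a gene was counted when its ratio passed 2-fold. The only spread that the data hold is the one among probe sets that name the same gene, an SD of the log2 ratio of 0.37 between the arrays at 24 h and 5 h, 0.46 between 60 h and 5 h and 0.44 between 60 h and 24 h. It does not measure the variation between palates or between arrays. In whole tissue, more cells of one type and more RNA per cell cannot be told apart.

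Markers of palatal mesenchyme and of epithelium were both present. All 12 mesenchyme markers and all 11 epithelial markers on the array were above the floor. The summed signal of the mesenchyme markers was 11809 before, 6141 during and 3400.3 after fusion, and 9 of them were over 2-fold lower after than before fusion, with none higher. Of all genes, 9.87% were lower and 12.9% higher in that comparison. Of 11 epithelial markers, 6 were over 2-fold higher after than before fusion and none was lower, with summed signals of 12221, 24151 and 30079. All 6 were keratin genes, whereas ratios after over before fusion were 1.26 for *Epcam*, 1.34 for *Grhl2*, 0.700 for *Esrp1* and 0.613 for *Trp63*. Their part in the results on the matrix genes was not tested.

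On chromosome 9, 10 Mmp genes follow one another in the GRCm38.p6 annotation, where *Mmp13*, *Mmp12*, *Mmp1b*, *Mmp3*, *Mmp1a*, *Mmp10*, *Mmp8*, *Mmp27*, *Mmp20* and *Mmp7* stand in this order with no other protein-coding gene between them. Of the 9 that had a probe set, only *Mmp13*, *Mmp12* and *Mmp10* were above the floor on any array. The promoters of 4 genes of this cluster are shown, chosen with their signals known: *Mmp13* and its neighbour *Mmp12* were both higher during fusion, *Mmp3* and *Mmp1a* lay under the floor throughout, and all 4 promoters carry the same short run of letters. They are the 250 bases before the RefSeq transcription start, read 5′ to 3′ on the plus strand of GRCm38.p6, at chr9:7272264-7272513 for *Mmp13*, chr9:7347124-7347373 for *Mmp12*, chr9:7445572-7445821 for *Mmp3* and chr9:7463891-7464140 for *Mmp1a*. *Mmp12* has a second annotated start, which is not shown. Capitals mark the AP-1 letters TGAGTCA or their reverse complement TGACTCA and the TATA letters TATAAA.
Mmp13: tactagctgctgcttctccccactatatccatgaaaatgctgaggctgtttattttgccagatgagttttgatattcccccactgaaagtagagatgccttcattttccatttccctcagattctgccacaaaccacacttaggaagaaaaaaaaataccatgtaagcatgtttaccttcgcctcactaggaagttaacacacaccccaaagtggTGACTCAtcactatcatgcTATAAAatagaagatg
Mmp12: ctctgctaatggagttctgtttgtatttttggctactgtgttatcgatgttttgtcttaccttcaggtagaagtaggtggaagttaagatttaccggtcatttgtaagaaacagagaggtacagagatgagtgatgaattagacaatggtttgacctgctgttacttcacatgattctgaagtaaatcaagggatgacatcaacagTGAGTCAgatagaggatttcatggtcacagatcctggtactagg
Mmp3: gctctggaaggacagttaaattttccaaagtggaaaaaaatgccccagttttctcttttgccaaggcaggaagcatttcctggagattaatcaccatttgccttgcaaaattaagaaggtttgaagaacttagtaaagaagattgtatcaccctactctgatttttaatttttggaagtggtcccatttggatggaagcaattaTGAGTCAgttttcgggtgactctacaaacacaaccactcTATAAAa
Mmp1a: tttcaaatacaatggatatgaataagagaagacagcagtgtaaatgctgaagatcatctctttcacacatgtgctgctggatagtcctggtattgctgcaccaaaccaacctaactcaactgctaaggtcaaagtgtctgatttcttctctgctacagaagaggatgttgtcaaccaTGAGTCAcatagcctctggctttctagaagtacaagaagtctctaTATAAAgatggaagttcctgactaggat

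The AP-1 letters are those bound by dimers of FOS and JUN proteins. They began 35 bases before the start in *Mmp13* (as TGACTCA), 44 in *Mmp12*, 46 in *Mmp3* and 73 in *Mmp1a*. A RefSeq promoter was on hand for 27 of the 42 genes, and 7 of these held the AP-1 letters on either strand: *Mmp1a*, *Mmp1b*, *Mmp3*, *Mmp7*, *Mmp10*, *Mmp12* and *Mmp13*, all of the chromosome 9 cluster. *Mmp8* and *Mmp20* of the same cluster did not hold them. Among all 32851 promoter windows of the same length, 4.46% held them. This share counts windows, whereas the 7 of 27 counts genes, and a gene can have several windows. The TATA letters were in 9 of the 27 and in 12.4% of all windows. A match is a run of letters, not a measured binding site.

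During fusion, the collagenase *Mmp13*, the gelatinase *Mmp9*, the macrophage elastase *Mmp12*, *Adamts16* and *Adamtsl1* were over 2-fold higher than before fusion, and *Adamts15* was over 2-fold lower. These are 5 higher and 1 lower of the 30 genes with a ratio. Of all genes, 5.76% passed 2-fold upward and 3.36% downward in the same comparison. The median log2 ratio was 0.21 over the 30 genes and -0.02 over all genes. When the arrays were scaled to the poly-A control probe sets, it was -0.058 over the members with a ratio and -0.30 over all genes. Scaling to the hybridization controls, or none, gave 6 higher and 0 lower, and scaling to the poly-A controls 4 higher and 2 lower. The 12 genes without a ratio were at background on both arrays, or gave only a bound under 1.

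After fusion, compared with before, 8 genes were over 2-fold higher: *Mmp13*, *Mmp9*, *Mmp23*, *Timp4*, *Adamts1*, *Adamtsl1*, *Adamtsl4* and *Adamtsl5*. Lower by over 2-fold were *Mmp11*, *Mmp16*, *Adamts6*, *Adamts15* and *Adamts18*. These are 8 higher and 5 lower of 33 genes with a ratio, while 12.9% of all genes were higher and 9.87% lower. The median log2 ratio was 0.24 over the 33 genes and -0.07 over all genes. It too changes sign with the poly-A controls, to -0.17, where the median of all genes was -0.44. That scaling gave 5 higher and 9 lower, whereas the signals as deposited gave 11 higher and 4 lower. Both comparisons share the single array before fusion.

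Between the arrays after and during fusion, *Mmp9*, *Timp4*, *Adamtsl4* and *Adamtsl5* were over 2-fold higher after fusion and *Mmp11*, *Mmp12*, *Adamts6*, *Adamts15*, *Adamts16* and *Adamts18* over 2-fold lower, of 34 genes with a ratio. The shares over all genes were 8.83% higher and 5.13% lower. The median log2 ratio of the 34 genes was 0.04, against -0.04 over all genes, and takes either sign between scalings. The 4 higher and 6 lower became 2 and 7 with either set of controls and with the signals as deposited, and 5 and 5 with one median. A gene above the floor at 1 stage alone had to differ to be counted, and 8 of the 34 were not above it on all 3 arrays. The 8 genes under the floor throughout were *Adamts19*, *Mmp1a*, *Mmp1b*, *Mmp3*, *Mmp7*, *Mmp8*, *Mmp19* and *Mmp20*.

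**Figure D1:**
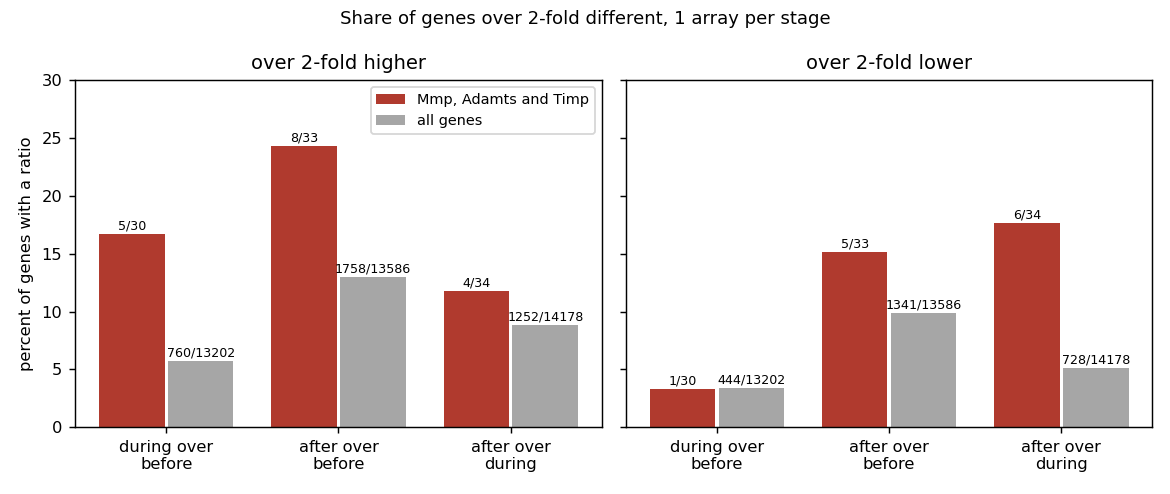
Percent of genes over 2-fold higher (left) and lower (right) in each comparison of 2 single arrays, for the Mmp, Adamts and Timp genes (red) and for all genes (grey). Numbers over the bars give genes counted over genes with a ratio; 8 of 33 were higher and 5 of 33 lower after than before fusion.

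**Figure D2:**
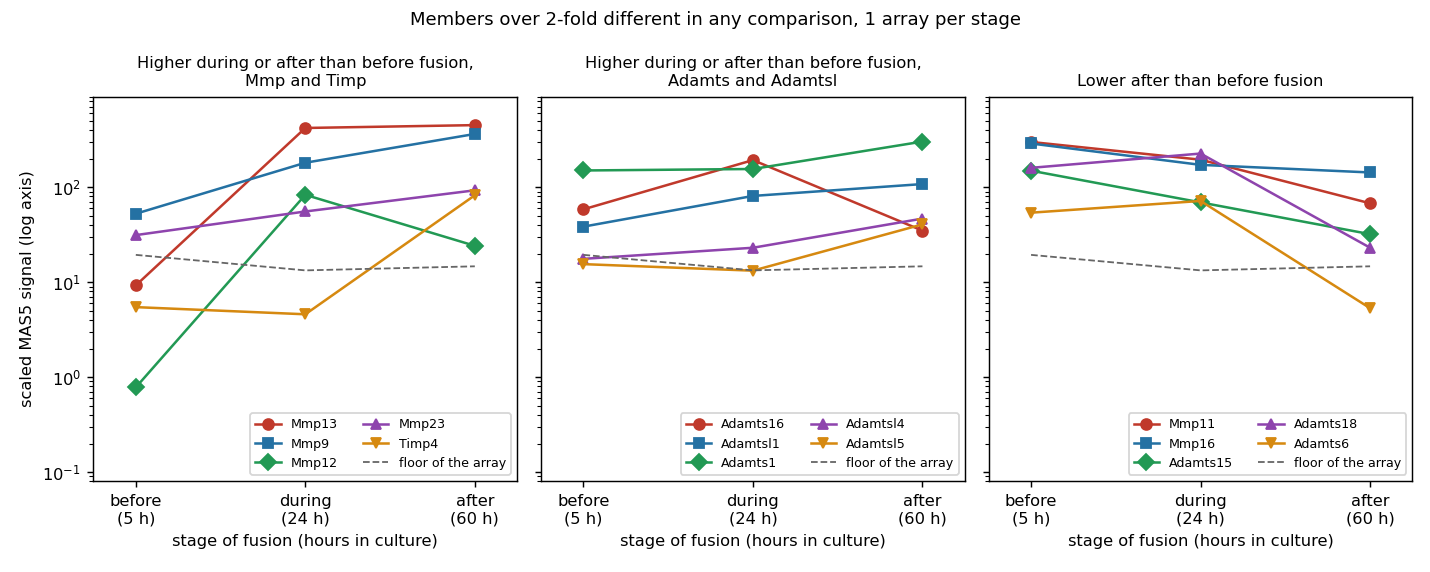
Scaled MAS5 signal on a log axis for the 15 genes over 2-fold different in any comparison (brightest probe set), at each stage before, during and after fusion, with the background floor of the single array dashed. *Mmp13* and *Mmp12* cross the floor between the arrays before and during fusion, *Timp4* between those during and after fusion, and *Adamts6* drops under it after fusion.

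Among the collagenases, which open the triple helix of fibrillar collagen, *Mmp13* was the only one above the floor. Its signal was 9.25 at 5 h, 421 at 24 h and 451 at 60 h. It was at background before fusion and far above it at both later stages, by at least 21.7-fold at 24 h and 23.3-fold at 60 h. These bounds were 15.3 and 16.4 with a floor at the median of each array, and *Mmp13* has 1 probe set. After over during fusion the ratio was 1.07, within 2-fold. *Mmp8*, the collagenase of neutrophils, gave 0.557 at 5 h, 4.87 at 24 h and 11.3 at 60 h, under the floor on each array, and *Mmp1a* and *Mmp1b* were under it too, with no signal over 7.13.

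The gelatinases cut denatured collagen and basement membrane collagen. *Mmp9*, made by macrophages, neutrophils and osteoclasts among other cells, gave 52.6 at 5 h, 181 at 24 h and 364 at 60 h, each step higher than the one before. The ratio was 3.44 at 24 h over 5 h, 6.92 at 60 h over 5 h and 2.01 at 60 h over 24 h. The second *Mmp9* probe set had signals of 75.4, 168 and 319.6 at these stages, and ratios of 2.23, 4.24 and 1.90, so both probe sets ranked the stages alike, and the last step lies at the threshold, with folds of 1.81 to 2.22 under the other settings. *Mmp2*, a product of mesenchymal cells, stood far above the floor throughout, at 1457, 1272 and 2156 for these stages. Its ratio to the array before fusion was 0.873 at 24 h and 1.48 at 60 h, neither of its probe sets passed 2-fold against the array before fusion, and 1 of the 2 passed it for after over during fusion (2.08).

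*Mmp11*, stromelysin-3 of stromal fibroblasts, which furin activates inside the cell, gave 299.7 at 5 h, 195 at 24 h and 67.8 at 60 h, the lowest signal last. It was 4.42-fold lower after than before fusion and 2.88-fold lower after than during fusion, and 1.54-fold lower during than before. *Mmp3* and *Mmp7*, the stromelysin-1 and matrilysin genes, were under the floor on all arrays. *Mmp10*, stromelysin-2, reached 15.1 during fusion, just over that floor, and was under it at the other stages, so that no fold against the array before fusion can be given.

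*Mmp12*, the elastase of macrophages, showed a peak. Its signal was 0.780 at 5 h, 83.2 at 24 h and 24.2 at 60 h. It was at least 4.29-fold higher during than before fusion and 3.44-fold lower after than during fusion, and after fusion it was at least 1.25-fold higher than before. The first bound was 3.03 with a floor at the median of each array, and *Mmp12* has 1 probe set. *Mmp23*, a membrane-anchored MMP without the hemopexin domain, gave 31.3, 55.6 and 92.8 at the stages in this order, highest after fusion, with ratios to 5 h of 1.77 and 2.96. Its other probe set was 2.35-fold higher after than before fusion. *Mmp20*, the enamel protease, was under the floor at each stage, and so was the brighter probe set of *Mmp19*, while the dimmer one reached 17.6 after fusion.

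Of the 4 membrane-type MMPs, *Mmp16* alone passed 2-fold. *Mmp14*, which activates pro-MMP2 and cuts collagen at the cell surface, gave 1437 at 5 h, 1328 at 24 h and 1931 at 60 h, with ratios to before fusion of 0.924 and 1.34. *Mmp16*, its close relative, gave 289 at 5 h, 172 at 24 h and 143 at 60 h, highest before fusion. It was 2.02-fold lower after than before fusion, a fold that was 1.79 to 1.99 under 4 of the 5 other scalings. All 4 *Mmp16* probe sets were lower after than before fusion, by 1.59-fold to 2.49-fold, and 3 of them passed 2-fold. *Mmp17*, anchored by a lipid tail, and *Mmp24*, known from neurons, lay close to the floor and within 2-fold, with ratios after over before fusion of 0.558 and 0.783.

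**Figure D3:**
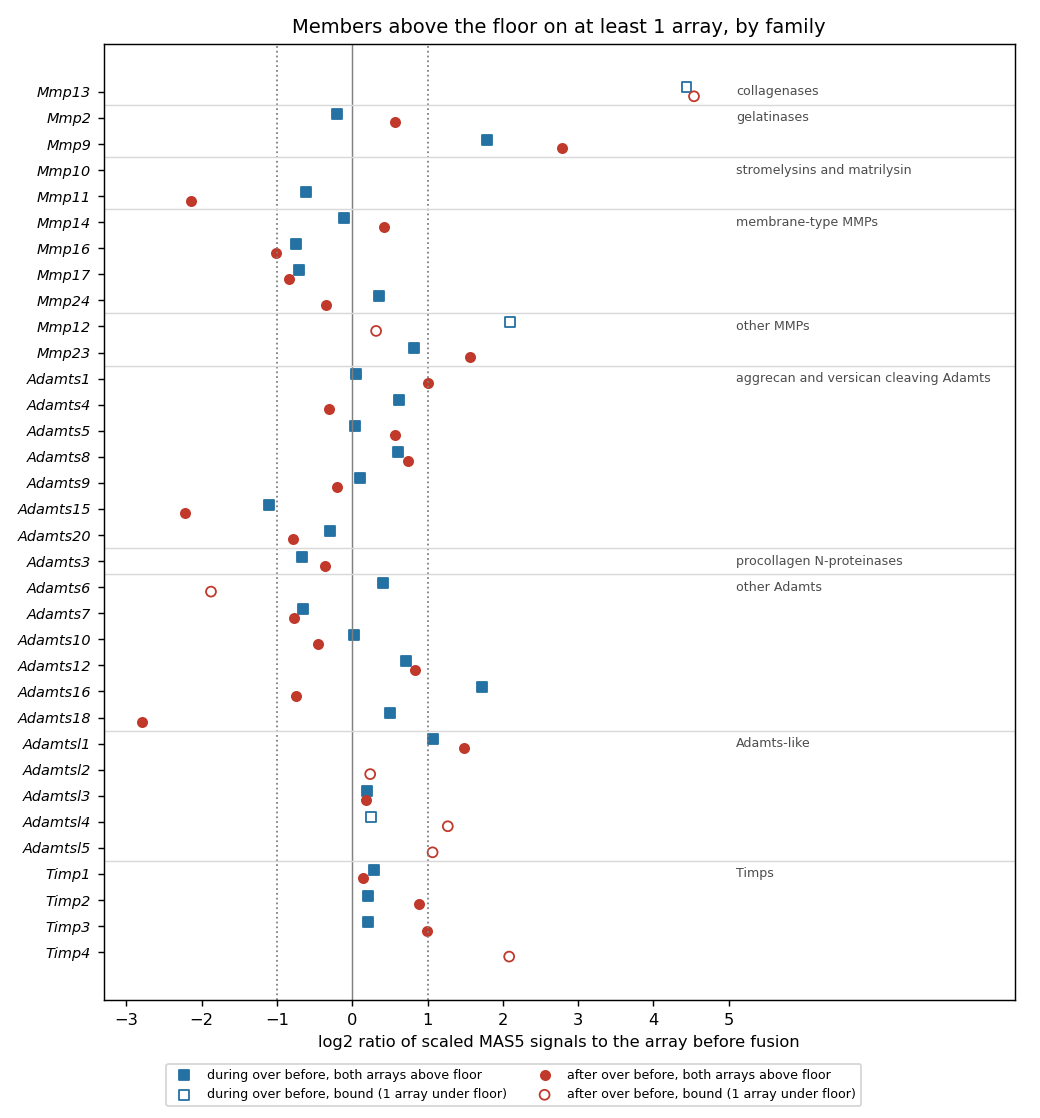
Log2 ratio of each scaled signal to the array before fusion, for the 34 genes over the floor anywhere, grouped by family, during fusion (squares) and after fusion (circles), with open symbols where 1 array was under the floor and dotted lines at 2-fold; *Mmp10* has no ratio to the array before fusion. *Mmp13* lies farthest to the right, and *Adamts18*, *Adamts15*, *Mmp11* and *Adamts6* lie farthest to the left after fusion.

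The proteoglycan-cleaving ADAMTS genes did not share one direction. All 7 on the array were above the floor at each stage. *Adamts15*, a versican-cleaving enzyme, gave 149 at 5 h, 69.2 at 24 h and 32.1 at 60 h, lower at each step. It was 2.16-fold lower at 24 h than at 5 h, 2.16-fold lower at 60 h than at 24 h, and 4.66-fold lower over the whole course. The first fold was 1.78 with the signals as deposited and the second 1.95 with one median. *Adamts1*, an early-response gene that also cuts versican and aggrecan, gave 150.2, 156 and 303, level at first and higher after fusion, by a ratio of 2.02 that lies at the threshold and was 1.58 with the poly-A controls. *Adamts9* and *Adamts20*, the pair known from palate growth, had ratios after over before fusion of 0.868 and 0.577. The aggrecanases *Adamts4* and *Adamts5* had ratios of 0.810 and 1.48, and *Adamts8* of 1.67 from a signal just over the floor before fusion. *Adamts4* gave 90.1 at 5 h, 139 at 24 h and 73.0 at 60 h, but its dimmer probe set was at least 1.81-fold lower during than before fusion.

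A further 3 ADAMTS genes, by their brightest probe sets, were over 2-fold lower after than during fusion. *Adamts18*, known from branching of epithelial organs, gave 160.1 at 5 h, 226 at 24 h and 23.1 at 60 h, far lower at the end. It was 9.81-fold lower after than during fusion, the third lowest ratio of 12772 genes above the floor on both arrays, and 6.94-fold lower after than before fusion. All 3 of its probe sets were over 2-fold lower after than during fusion, by 2.73-fold to 9.81-fold, but for after over before fusion the range was 1.66-fold to 6.94-fold lower, with 2 of 3 past the threshold. The median over the probe sets was 4.28-fold lower after than during and 2.08-fold lower after than before fusion. *Adamts6*, which acts on fibrillin microfibrils and cell adhesion, gave 54.0 at 5 h, 71.7 at 24 h and 5.33 at 60 h, under the floor at the last stage. It was at least 4.88-fold lower after than during and at least 3.67-fold lower after than before fusion. These bounds were 2.67 and 2.01 with a floor at the median of each array. Both its probe sets passed 2-fold for after over during fusion, and 1 of the 2 for after over before fusion, where the other was at least 1.58-fold lower. *Adamts16*, known from the development of kidney and gonad, peaked during fusion in its brightest probe set, at 58.5 at 5 h, 193 at 24 h and 34.9 at 60 h, 3.30-fold higher during than before and 5.53-fold lower after than during fusion. The second *Adamts16* probe set had signals of 76.6, 59.97 and 81.9 at these stages and did not show the peak, and the median over both was 1.61-fold higher during than before and 2.01-fold lower after than during fusion.

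The remaining ADAMTS enzymes stayed within 2-fold in each comparison. *Adamts3*, a procollagen N-proteinase, had ratios to 5 h of 0.630 at 24 h and 0.781 at 60 h. *Adamts7* and *Adamts12*, which cleave the cartilage protein COMP, had ratios after over before fusion of 0.582 and 1.78. *Adamts10*, a fibrillin-1 partner, had 0.728. The probe set of *Adamts19* lay under the floor on all arrays, at 1.78 or less.

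The ADAMTS-like genes code for secreted proteins of microfibrils and matrix. None of the 5 was lower after than before fusion, whereas 7317 of 13586 genes with a ratio were. The log2 ratio was 0.18 for *Adamtsl3* and a bound of 0.24 for *Adamtsl2*. Both are smaller in size than the shift of -0.37 in the all-gene median with the poly-A controls. *Adamtsl1* gave 38.5 at 5 h, 81.0 at 24 h and 108 at 60 h, higher at both later stages. Its ratios to 5 h were 2.11 and 2.81, and the first was 1.95 with one median and 1.75 with the poly-A controls. All 3 *Adamtsl1* probe sets were over 2-fold higher after than before fusion, from 2.77-fold to at least 6.51-fold. *Adamtsl4*, which binds fibrillin-1 and holds the lens in place, gave 17.6, 23.0 and 46.7, with the first under the floor, and was at least 2.41-fold higher after than before fusion and 2.03-fold higher after than during it. The folds were 1.70 and 1.58 with a floor at the median of each array. *Adamtsl5* gave 15.5 at 5 h, 13.2 at 24 h and 40.6 at 60 h, above the floor at the end alone. It was at least 2.09-fold higher after than before and at least 3.05-fold higher after than during fusion, but the median over its probe sets gave folds of 1.26 and 1.84, and its dimmer probe set gave no ratio to the array before fusion and a bound of 1.11 to that during fusion. *Adamtsl2* crossed the floor only after fusion, at 22.9, and *Adamtsl3* had ratios of 1.15 and 1.13.

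All 4 inhibitor genes had ratios over 1 for after over before fusion, as did 6269 of 13586 genes with a ratio. With the poly-A controls the median log2 ratio of all genes in this comparison shifted by -0.37. The log2 ratio of *Timp1*, 0.15, is smaller in size than that shift. *Timp4*, known from heart and fat, showed the widest difference, with 5.46 at 5 h, 4.59 at 24 h and 82.3 at 60 h, above the floor only at the end. It was at least 4.24-fold higher after than before and at least 6.18-fold higher after than during fusion, and its second probe set gave bounds of 3.77 and 5.50. The bound after over during fusion was 2.77 with a floor at the median of each array. *Timp3*, which binds to the matrix, gave 379 at 5 h, 439.6 at 24 h and 756 at 60 h, and its ratio of 2.00 after fusion falls just short of the threshold. The other 3 *Timp3* probe sets all passed it, and the ratios of the 4 ran from 2.00 to 2.27. *Timp2* gave 1112, 1286 and 2059 and a ratio of 1.85 after fusion, and the 5 of its 6 probe sets above the floor ran from 1.45 to 1.93. *Timp1*, the inducible inhibitor, was nearly level at 181, 220.1 and 200.01.

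**Figure D4:**
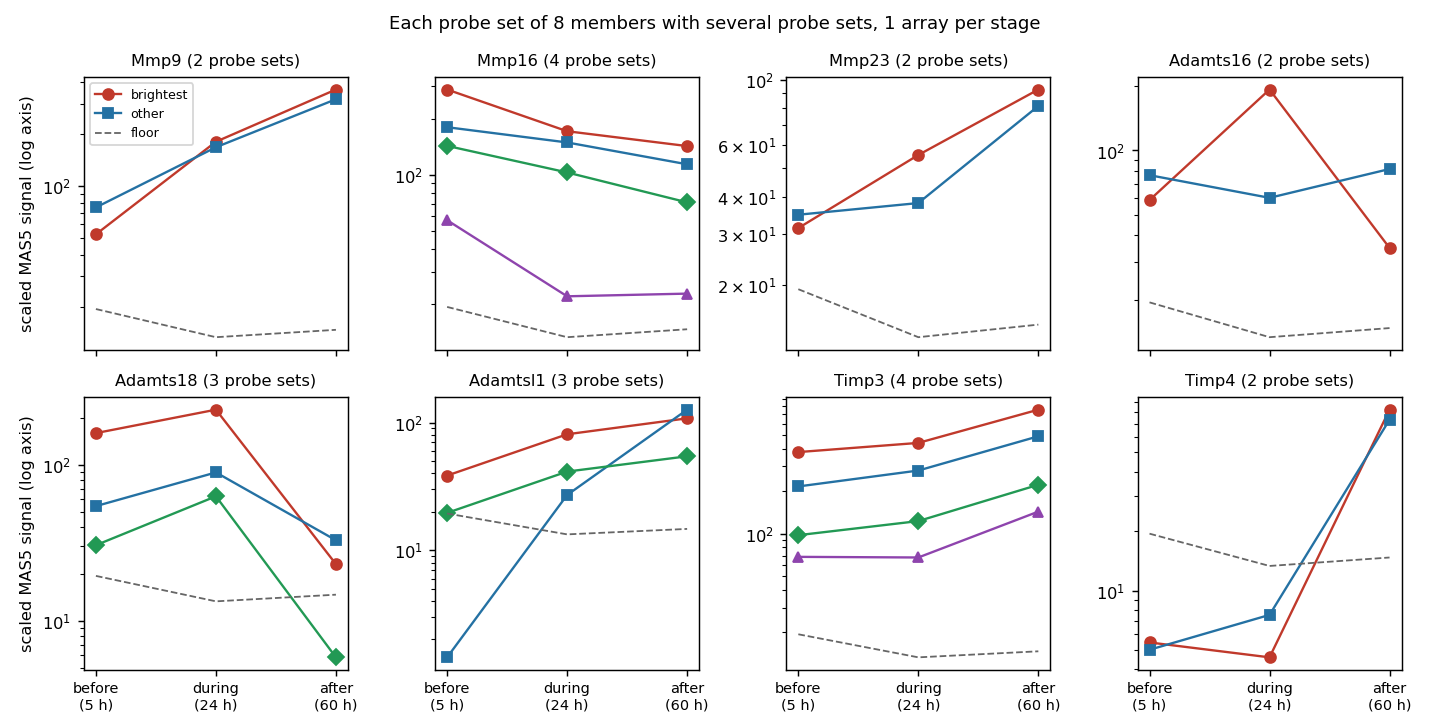
Scaled MAS5 signal (log axes that differ between panels) of each probe set of 8 genes with several probe sets, on the single array of each stage (before, during, after fusion); dashed lines give the floor. All probe sets of *Mmp9*, *Timp3* and *Timp4* lie higher, and all of *Mmp16* and *Adamts18* lower, after than before fusion, whereas only 1 of the 2 *Adamts16* probe sets peaks during fusion.

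Genes listed for the activation and cell-surface control of MMPs, protease inhibitors among them, were examined next. Of 17 with a ratio during fusion, 2 were over 2-fold higher, and of 17 after fusion 5 were higher than before; none was lower in either. Of all genes, 5.76% were higher at 24 h and 12.9% at 60 h. The list's median log2 ratios were 0.0075 and 0.39. The urokinase receptor gene *Plaur* had ratios of 3.04 and 3.64 and *Serpinb5*, a serpin of epithelium, of 4.21 and 3.68. *Spock1*, the protease inhibitor gene *A2m* and the hyaluronan receptor gene *Cd44*, which docks MMP9 on cells, had ratios of 2.28, 2.05 and 2.43 after fusion. *Reck*, a membrane inhibitor of MMPs, the inducer *Bsg* and the activating convertase *Furin* stayed close to the array before fusion, with ratios for *Reck* of 0.865 and 0.815. *Plau* and *Plg* were under the floor.

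Matrix genes listed beside the ADAMTS enzymes came next, not all of them established substrates. Of 14 with a ratio, 1, *Acan*, was over 2-fold higher at 24 h than at 5 h (5.76% of all genes). Another, *Col2a1*, was over 2-fold lower (3.36% of all genes). At 60 h, 4 of 14 were higher than at 5 h and 2 lower, against 12.9% and 9.87% of all genes, and the median log2 ratio was 0.71. The fibrillar collagen gene *Col1a1* had a ratio of 7.03 after fusion, the elastin gene *Eln* 3.94 and the biglycan gene *Bgn* 3.50. The versican gene *Vcan* gave 1036 at 5 h, 999 at 24 h and 509 at 60 h and was 2.04-fold lower after than before. *Acan*, which codes for aggrecan, was under the floor at 5 h, at 52.3 at 24 h and at 38.7 at 60 h. Of other metalloproteinases, 2 of 15 with a ratio were over 2-fold higher and 0 lower at 24 h, and 2 of 16 higher and 3 lower at 60 h, with a median log2 ratio of 0.33. The share higher at 60 h is near the 12.9% of all genes. *Adam8*, of myeloid cells, had ratios of 2.91 and 5.67, whereas *Adam19* and *Mme* were 2.33-fold and 2.09-fold lower after fusion.

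Among 16 genes of TGFβ signalling and AP-1 with a ratio, 5 were over 2-fold higher during fusion and none was lower, against 5.76% and 3.36% of all genes, with a median log2 ratio of 0.26. All 5 were AP-1 genes, the family whose letters stand in the promoters above: *Fos* (5.69), *Fosl2* (3.95), *Junb* (3.09), *Jun* (2.29) and *Fosl1* (at least 2.19). Of the AP-1 genes listed, *Jund* had a ratio of 1.08 and *Fosb* gave no ratio. After fusion the same 5 were higher than before, with *Fos* at 25.6, and the receptor gene *Tgfbr1* was 2.04-fold lower. *Tgfb3* had ratios of 1.88 and 1.17. What part these factors have in the signals of *Mmp13* and *Mmp12* was not tested.

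Markers of other cell types were read on the same arrays. Of all genes, 5.76% passed 2-fold upward and 3.36% downward at 24 h over 5 h, and 12.9% and 9.87% at 60 h. The counts below are out of the markers on the array, some without a ratio. At 24 h a ratio was had by 6 osteoblast, 5 osteoclast, 5 neutrophil, 3 mast cell and 8 chondrocyte markers. At 60 h it was had by 7, 6, 7, 5 and 8 of them. Of 12 macrophage markers, 6 passed 2-fold upward at 24 h and 11 at 60 h, and their summed signal was 767 at 5 h, 1569 at 24 h and 3312 at 60 h. *Mmp9* and *Adam8* were likewise higher at each later stage. So were the sums of the osteoblast, osteoclast, neutrophil, mast cell and epithelial markers, and 3 arrays cannot tell these courses apart. *Mmp12*, in contrast, was lower after than during fusion while the macrophage sum was higher. Of 7 osteoblast markers, 5 passed 2-fold upward at 24 h and 7 at 60 h, and their sum was 1439, 5722 and 14523. Before fusion *Ifitm5*, *Phex*, *Ibsp* and *Dmp1* were under the floor, as *Mmp13* was. *Sp7*, *Alpl* and *Col1a1* were above it then, at 43.9, 179 and 1180. Of 10 osteoclast markers, *Acp5* was over 2-fold higher at 24 h, and *Acp5* and *Ctsk* at 60 h, the sum was 367, 561 and 961, and *Calcr* and *Ocstamp* were under the floor throughout. Of 8 neutrophil markers, 1 was higher at 24 h and 4 at 60 h, with sums of 128, 232 and 1183, and *Camp*, like *Mmp8*, was not above the floor. *Ltf* gave 668 of the last sum. After over before fusion, *Prtn3* had a ratio of 0.994 and *Mpo* was at least 1.99-fold lower. Of 8 mast cell markers, *Hdc* alone passed 2-fold at both stages, with sums of 213, 285 and 2093, and *Mcpt4* and *Ms4a2* were under the floor throughout. *Hdc* alone gave 1835 of the last sum, and *Kit* had a ratio after over before fusion of 1.05. Of 10 chondrocyte markers, 1 was higher and 2 lower at 24 h, 3 were higher and 3 lower at 60 h, and *Matn1* and *Col10a1* were under the floor throughout. Of 8 endothelial markers, 4 were over 2-fold lower at 24 h and 1 at 60 h, none was higher, and the sum was 1280.01, 772 and 772, and all 7 skeletal muscle markers with a ratio were lower after than before fusion. The palatal mesenchyme markers, whose sum is given above, were lower on the same arrays as *Mmp11*, *Mmp16* and *Adamts15*, of which *Mmp11* and *Adamts15* have 1 probe set each. *Mmp2*, also a gene of mesenchymal cells, had a ratio after over before fusion of 1.48. What part these cells have in the differences was not tested.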

How the data were processed

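Gene expression was measured on 1 Mouse Genome 430 2.0 array per stage of palatal fusion. The deposited intensity values were made by the authors in GeneChip Operating Software (MAS5, as the submitters' processing notes also state), background-corrected and linear, with 1 value per probe set; no scaling target is given in the sources used here. The trimmed means of the deposited signals were 124 before, 150.0 during and 139.7 after fusion. The arrays were therefore scaled here to a common trimmed mean, without the top and bottom 2%, by factors of 1.11, 0.918 and 0.986. Of 45101 probe sets, 64 are controls, 34945 name 1 gene, 932 several and 9160 none; 34741 platform symbols were matched by gene ID to the GRCm38.p6 annotation. The floor rests on 81 probe sets of sensory receptors, and 56.8% of probe sets lay above it before, 65.6% during and 61.4% after fusion. A bound under 1 gave no ratio. The number of arrays limits the precision. No replicates exist, so no test was run; counts past 2-fold describe these arrays.

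The members, lists and settings were chosen with earlier results of these data known. Every member over 2-fold different in any comparison was named, the others within their family. Alternatives were 5 other scalings, 3 other floors, other choices of probe set and a 4-fold threshold. Calculations used log2 ratios and were tested on simulated arrays, in Python 3.11.15, numpy 2.4.6 and pandas 2.3.3. Promoters are from RefSeq (GRCm38.p6), a build used for names and these sequences alone.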

Additional observations from a re-analysis of the deposited data

How the results depend on the processing

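No paired analysis was possible because each stage has 1 array. All 29 ratios over 2-fold kept their direction under each of the alternatives run, and 18 stayed over 2-fold in all of them. The other 11 belonged to *Adamts1*, *Adamts15*, *Adamts16*, *Adamtsl1*, *Adamtsl4*, *Adamtsl5*, *Mmp9* and *Mmp16*. The kept direction says little, since the scaling shifts given next are smaller than a 2-fold ratio and could not reverse one. The median over probe sets leaves a gene with 1 probe set unchanged. With other scalings the median log2 ratio of all genes shifted by -0.28 (poly-A controls) to 0.27 (signals as deposited) between 24 h and 5 h, by -0.37 to 0.18 between 60 h and 5 h with the same settings, and by -0.15 (hybridization controls) to 0.15 (one median) between 60 h and 24 h.

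For during over before fusion, the count of lower genes, 1 in the report, was 0 with the hybridization controls, 0 with the signals as deposited, 2 with the poly-A controls and 3 with no floor. For after over before fusion, the poly-A controls gave 5 higher and 9 lower. For after over during fusion, the count of higher genes was 2 with the hybridization controls, the poly-A controls, the signals as deposited, the median over probe sets and a floor set at the median of the array, and 9 with no floor, which takes in signals at background. With a threshold of 4-fold the counts were 2 higher and 0 lower between 24 h and 5 h, 3 and 3 between 60 h and 5 h, and 1 and 3 between 60 h and 24 h. Over all genes with a ratio they were 151 higher and 31 lower of 13202, 648 and 123 of 13586, and 375 and 52 of 14178. The median log2 ratio of the genes changed sign with the poly-A controls in each comparison (-0.058 between 24 h and 5 h, -0.17 between 60 h and 5 h, -0.042 between 60 h and 24 h), and for after over during fusion also with the hybridization controls (-0.11), the signals as deposited (-0.062) and probe sets not marked as shared (-0.017). With the poly-A controls the medians of all genes were -0.30, -0.44 and -0.12 for these 3 comparisons, each lower than that of the members. Either set of controls, or the signals as deposited, amounts to 1 factor per array, which moves all ratios of a comparison by the same amount. With a floor at the median of the array, *Adamtsl4* (1.58-fold) and *Adamtsl5* (1.37-fold) no longer passed 2-fold for after over during fusion. No cause beyond these and the background signals was tested.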
